A study of Mus musculus with 15 samples.

Results

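Colon of Il10-/- mice with moderate colitis at 12 weeks of age is compared here with colon of C57 mice of that age, which had none. It takes 8 of the 15 arrays of the series, chosen by their titles: 4 of Il10-/- mice (mice 92, 94, 95 and 96) and 4 of C57 mice (mice 63, 64, 65 and 66). All 19076 genes that could be tested in the series were tested at 12 weeks. The Il10-/- mice were males of the strain B6.129P2-IL10<tm1Cgn>/J, in which the gene is deleted in every cell from conception, and the controls were C57BL/6J males. Both genotypes were housed singly, ate the same AIN-76A powder diet in matched amounts, and after 4 days received by mouth Enterococcus faecalis, Enterococcus faecium and gut flora of healthy C57BL/6J mice. The bacteria are therefore shared by the controls. A full-thickness piece of colon was used, so that epithelium, immune cells, muscle and nerves entered 1 RNA sample. Each Cy3-labelled colon sample was hybridized against a Cy5-labelled pool of small intestine, colon, kidney, liver and fetuses of Swiss mice, and a value is the log2 ratio of colon over that pool. The remaining 7 arrays, of 3 Il10-/- and 4 C57 mice of 7 weeks without colitis, entered the same model and are used for comparison. Il10-/- mice with inflammation at 7 weeks had been left out of that younger group. Genotype and age were read from the titles, because the characteristics do not distinguish the groups. Each array is 1 mouse, and p values measure the spread between mice.

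Interleukin-10 is a cytokine made by regulatory T cells, macrophages and other leukocytes. Through its receptor and the transcription factor STAT3 it restrains macrophages and dendritic cells, and it thereby limits their cytokine output, antigen presentation and the T helper 1 cells they drive. Mice without it develop a bacteria-dependent colitis, in which interferon-gamma and interleukin-12 family cytokines are known to take part. Interferon-gamma acts on promoters with gamma-activated sites, and interferon regulatory factors bind interferon-stimulated response elements, so that many host defence and antigen presentation genes are switched on together.

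Liver markers averaged −3.10 to −2.96 in Il10-/- mice and −3.62 to −2.83 in C57 mice (log2 ratio, 12 genes), kidney markers −2.01 to −1.86 and −2.25 to −1.64 (13 genes), and absorptive colonocyte markers 0.07 to 0.60 and 0.57 to 1.08 (14 genes). The ratios thus place colon against the pool in every mouse. A ratio of 0 means a level equal to that of the pool, not absence. Of the Il10-/- mice, mouse 95 stood apart in the genes that fell: it lay nearest to the C57 mice in 146 of 195 of them, and its difference was a median of 62.2% of that of the other 3 Il10-/- mice. In genes that rose it reached a median of 99.7%. Even there it was most often the nearest to the C57 mice, in 103 of 286 genes, against 72, 45 and 66 for mice 92, 94 and 96. Of the C57 mice, mouse 63 had low smooth muscle markers (mean 0.01, against 0.41 to 0.60 in the other 3). It also had low fibroblast and adipocyte markers (mean −0.35, against 0.06 to 0.15). Its array had fewer features with a value (41687, against 42043 to 42104) and a larger SD (0.51, against 0.44 to 0.47). The cause was not tested.

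Il10 itself, measured by 1 feature, had log2 ratios of 0.25, 0.03, 0.05 and 0.05 in the Il10-/- mice, against −0.12, −0.06, −0.13 and 0.18 in C57 mice. The groups overlapped, and the difference of 0.13 ± 0.08 (SE) was not called by limma (adjusted p = 0.363). Where this feature lies relative to the deleted part is not known here, so it does not check the genotype. Because the deleted allele comes from another strain, the genes beside Il10 were counted. Of the 50 nearest genes tested, 25 on either side, Pigr was higher and Rab7b lower, which is 4%, and of the 200 nearest 3 were higher and 3 lower (3%). Of all genes tested, 1.5% were higher and 1.02% lower.

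In all, 286 genes (1.5% of those tested) were higher and 195 genes (1.02%) lower in Il10-/- mice where called means an adjusted p below 0.05 in limma together with at least a 1.5-fold difference. A fold of 2 or more was reached by 117 of the higher and 72 of the lower genes, and a fold of 4 or more by 19 and 9. The 2 groups of mice did not overlap in 431 of the 481 called genes, and in 2582 of all genes tested (13.5%). Counted over the 42128 features, 1035 (2.46%) were called, 668 higher and 367 lower. The median difference over all genes was −0.00. In bulk tissue, more or fewer cells of a type cannot be told apart from more or less RNA per cell.

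**Figure D1:**
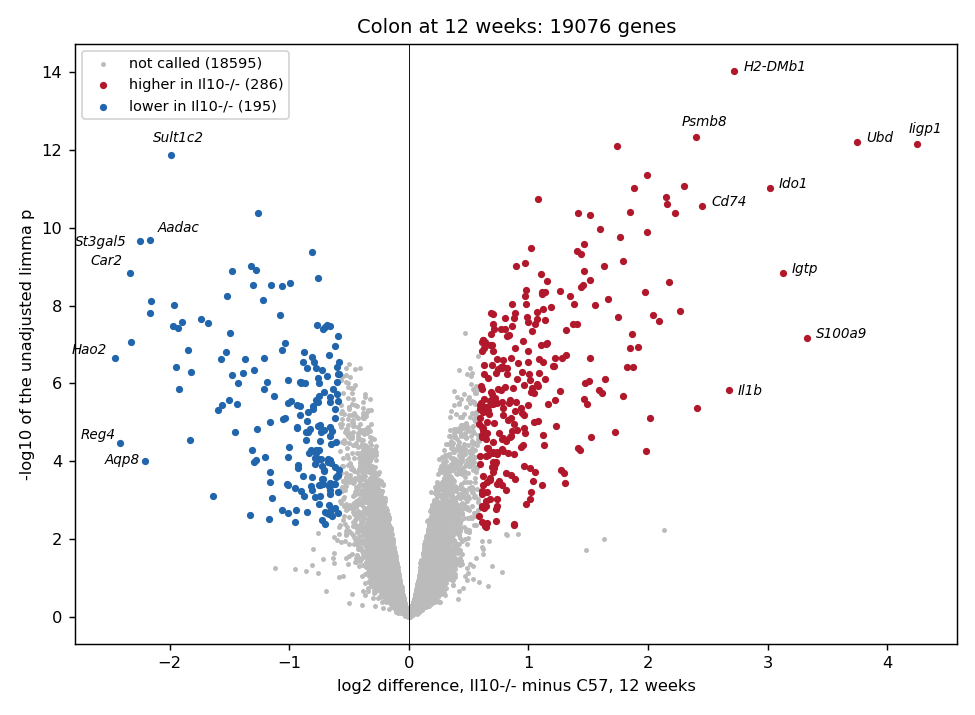
Log2 difference of group means, Il10-/- minus C57 at 12 weeks (x axis), against −log10 of the unadjusted limma p (y axis) for 19076 genes, 1 point per gene. The 286 genes called higher reach further from 0, up to 4.25 for Iigp1, than the 195 called lower, which reach −2.45 for Hao2.

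Genes that interferon-gamma is known to induce were among the largest rises. The interferon-inducible GTPases include proteins that attack the membranes of vacuoles that hold microbes. Of the 18 measured, 13 were higher and 0 lower, with a median difference of 1.13. All 18 differences were positive. Iigp1, an immunity-related GTPase, had log2 ratios of 1.29, 1.52, 1.39 and 1.17 in Il10-/- mice, against −3.28, −2.86, −2.47 and −3.01 in C57 mice. It was the largest rise of all, 19-fold (4.25 ± 0.20, adjusted p = 2.95e-09), with all 4 Il10-/- mice above the pool and all 4 C57 mice far below it. Igtp, a regulatory member of the same family, stood at 0.99, 1.07, 1.09 and 0.67 in Il10-/- mice, against −2.64, −1.97, −1.88 and −2.20 in C57 mice (8.73-fold, adjusted p = 7.18e-07). Mouse 95 was as high as the others in both genes. Irgm2 (3.93-fold), Gbp2 (3.97-fold), Gbp4 (3.68-fold), Ifi47 (3.63-fold), Gbp3 (3.06-fold) and Irgm1 (2.21-fold) also rose, with no overlap between the groups. Tgtp1 rose by 1.46 over 2 features that disagree (−0.09 and 3.01). Members of these families are similar in sequence, and how far probes respond to more than 1 member is not known here.

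Short stretches before the start site of GTPase genes that rose are shown because they share a motif. They were picked for holding it close to the start. The promoter of Iigp1 was not among those searched for this display, so its absence here says nothing about the motif. The letters are RefSeq sequence of the build GRCm38.p6, the 100 bases upstream of the annotated start, read along the gene's strand. Capitals mark GAAANNGAA, the core of the interferon-stimulated response element, found on either strand; where it lies on the other strand the capitals read as its reverse complement. Socs1 and Cd274, which encode a feedback inhibitor of interferon signalling and the checkpoint ligand PD-L1, are added. They also rose and were picked for holding the motif in the same way. No gene that did not rise is shown.
Igtp, chr11:58199456-58199555, plus strand: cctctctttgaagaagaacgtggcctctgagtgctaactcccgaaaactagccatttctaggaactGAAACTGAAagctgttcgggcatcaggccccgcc
Irgm2, chr11:58214877-58214976, plus strand: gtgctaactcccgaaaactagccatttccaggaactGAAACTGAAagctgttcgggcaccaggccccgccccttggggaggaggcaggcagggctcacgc
Tgtp1, chr11:48992247-48992346, minus strand: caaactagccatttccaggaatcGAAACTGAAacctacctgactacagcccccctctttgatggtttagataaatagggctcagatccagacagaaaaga
Irgm1, chr11:48871421-48871520, minus strand: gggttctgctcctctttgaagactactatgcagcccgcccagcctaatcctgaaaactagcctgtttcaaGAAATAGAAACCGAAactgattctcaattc
Gbp2, chr3:142620563-142620662, plus strand: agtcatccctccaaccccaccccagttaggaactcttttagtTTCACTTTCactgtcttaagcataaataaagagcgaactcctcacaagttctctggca
Gbp3, chr3:142559944-142560043, plus strand: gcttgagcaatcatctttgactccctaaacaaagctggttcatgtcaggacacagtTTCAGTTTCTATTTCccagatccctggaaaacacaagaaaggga
Socs1, chr16:10785537-10785636, minus strand: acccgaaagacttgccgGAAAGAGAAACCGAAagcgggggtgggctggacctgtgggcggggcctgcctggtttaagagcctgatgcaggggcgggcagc
Cd274, chr19:29367338-29367437, plus strand: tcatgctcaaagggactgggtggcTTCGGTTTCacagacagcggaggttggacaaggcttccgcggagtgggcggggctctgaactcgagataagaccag

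The match begins 34 bases before the start in Igtp and 64 bases before it in Irgm2, and these 2 stretches share an unbroken run of 29 bases. Irgm1, Gbp3 and Socs1 hold 2 overlapping matches each. Of 15297 tested genes with a promoter in the RefSeq table (250 bases before to 50 bases after the start), 9.31% held GAAANNGAA on either strand. The motif was found in 46 of 216 genes called higher (21.3%) and in 8 of 152 called lower (5.26%). In the GTPase list it was in 9 of 10 promoters, and in the other interferon-induced genes in 15 of 25. TTCNNNGAA, the core of the gamma-activated site, was in 14.8% of the higher genes, 6.58% of the lower genes and 8.97% of all. The NF-kB motif was in 19.4%, 11.8% and 11.2%, and the DR1 motif of nuclear receptors in 0.926%, 0 and 0.255%. A match of letters is not a measured binding site.

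The other interferon-induced genes were less uniform. Of 33 measured, 8 were higher and 0 lower (median 0.33). Ubd, which encodes the ubiquitin-like protein FAT10, had log2 ratios of 2.10, 2.14, 2.39 and 2.15 in Il10-/- mice, against −1.72, −1.51, −1.56 and −1.41 in C57 mice (13.4-fold, adjusted p = 2.95e-09). Ido1, the enzyme that opens the tryptophan ring to start kynurenine formation, stood at 2.41, 2.85, 1.91 and 2.37 in Il10-/- mice, against −0.51, −0.59, −0.74 and −0.69 in C57 mice (8.11-fold, adjusted p = 1.84e-08). Neither gene overlapped between the groups. Zbp1, a sensor of Z-form nucleic acid, rose 3.39-fold, and AW112010, a transcript in no list, 4.91-fold. Among other members of the list, Ifit2 (2.06-fold), Bst2 (1.72-fold) and Usp18 (1.66-fold) were called, while Ifit1 had a difference of 0.45 ± 0.32 (adjusted p = 0.448) and Ifit3 of −0.06 ± 0.22 (adjusted p = 0.902). The call of Usp18 was lost with array weights and without Il10-/- mouse 92 or 95 or C57 mouse 63.

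Of 19 genes of interferon signalling and its feedback, 5 were higher and 0 lower (median 0.24). Ifng, the cytokine itself, had log2 ratios of 0.96, 0.72, 0.94 and 0.71 in Il10-/- mice, against −0.16, 0.14, 0.14 and 0.24 in C57 mice. The groups did not overlap, and the difference of 0.74 ± 0.09 (adjusted p = 4.66e-05) was small beside those of the GTPases. Feedback inhibitors were also higher. Socs3, which is induced by STAT3-activating cytokines, rose 3.18-fold and Socs1 2.65-fold. Socs1 was tight in C57 mice, at −0.56, −0.58, −0.58 and −0.56, against 1.21, 0.75, 0.71 and 0.68 in Il10-/- mice. The transcription factors Irf8 (1.81-fold) and Stat2 (1.75-fold) were also higher.

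**Figure D2:**
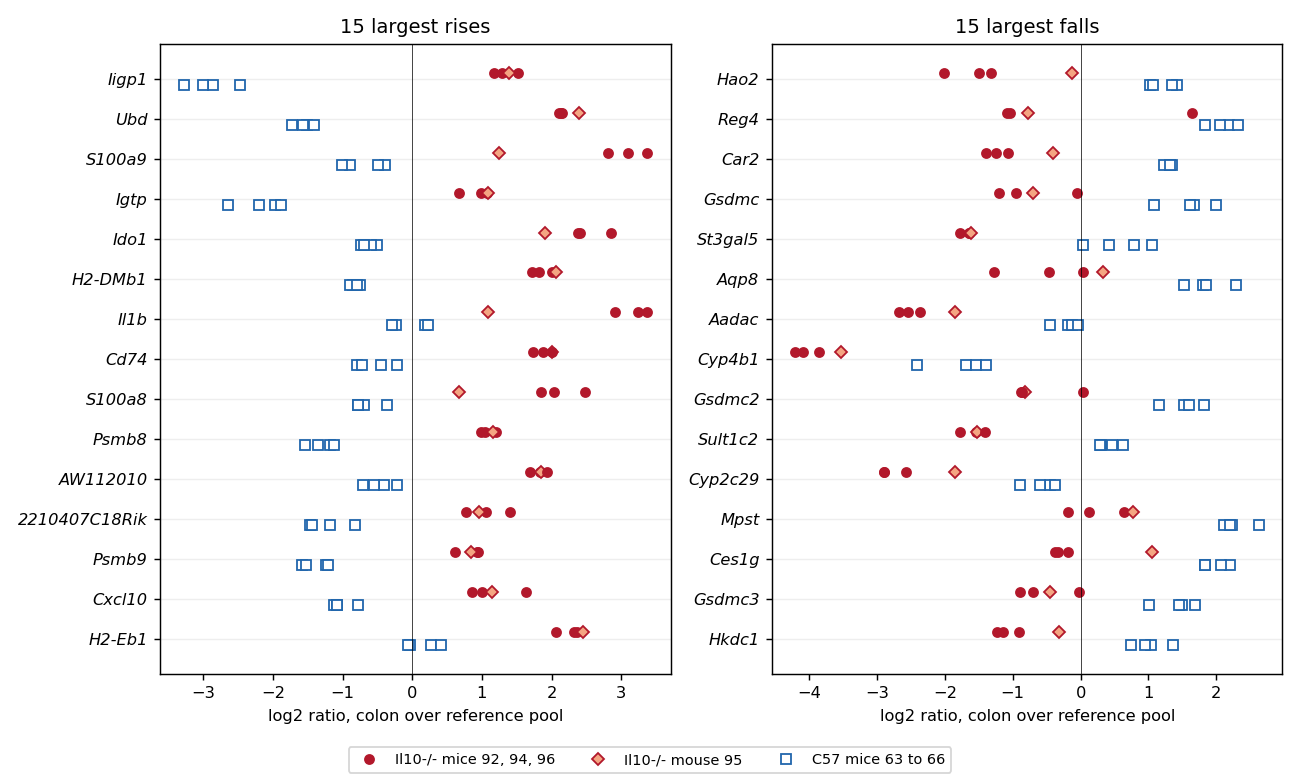
Log2 ratio of colon over the reference pool (x axis) for each mouse, in the 15 genes with the largest rises (left) and the 15 with the largest falls (right); Il10-/- mice are filled symbols, with mouse 95 as a diamond, and C57 mice open squares. In the interferon and MHC genes mouse 95 lies near the other Il10-/- mice, above all of them in Ubd (2.39) and below all of them in Ido1 (1.91), and it lies between them and C57 in S100a9 (1.25), Il1b (1.09), S100a8 (0.67) and most falls, such as Hao2 (−0.12).

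Antigen presentation genes rose in both classes. MHC class I molecules show peptides from inside the cell to CD8 T cells, and of 24 class I presentation genes 12 were higher and 0 lower (median 0.59). Psmb8, an inducible catalytic subunit of the immunoproteasome that cuts such peptides, had log2 ratios of 1.04, 1.21, 1.16 and 0.99 in Il10-/- mice, against −1.36, −1.55, −1.17 and −1.12 in C57 mice (5.27-fold, adjusted p = 2.95e-09). Psmb9, its partner subunit, rose 4.66-fold, and the peptide transporter gene Tap1 2.11-fold. The chains H2-Q8 (2.66-fold), H2-Q4 (2.54-fold), H2-T10 (2.27-fold) and H2-D1 (2.15-fold) rose in every mouse, with the same reserve on similar sequences. B2m, the shared light chain, rose 2.17-fold over 3 features with differences of 1.06 to 1.23. Part of its feature values equal a value that many features of an array share. The origin of that value was not settled, so the size of the rise is uncertain.

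MHC class II molecules present peptides from outside the cell to CD4 T cells and are made by professional presenting cells and, under interferon-gamma, by epithelium. Of the 12 measured genes 7 were higher and 0 lower, with a median of 1.30. H2-DMb1, a chain of the peptide exchange factor, had log2 ratios of 1.72, 2.01, 2.06 and 1.82 in Il10-/- mice, against −0.84, −0.90, −0.75 and −0.79 in C57 mice. Its 6.59-fold rise had the smallest adjusted p of all genes, 1.8e-10, since the mice of each group lay close together. Cd74, the invariant chain, rose 5.47-fold, H2-Eb1 4.45-fold, H2-Ab1 3.98-fold, H2-Aa 2.85-fold and H2-DMa, the partner of H2-DMb1, 2.12-fold. Ciita, the master regulator of the class II genes, stood at 1.35, 1.65, 1.44 and 1.14 in Il10-/- mice, against −0.52, −0.48, −0.21 and −0.37 in C57 mice (3.46-fold, adjusted p = 4.5e-07). Averaged over the list, mouse 95 was the highest, at 1.28 against 1.01 to 1.09 in the other 3 Il10-/- mice and −0.21 to 0.01 in C57 mice.

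Inflammatory mediators of myeloid cells rose as steeply but varied far more among the mice. S100a9, 1 subunit of the neutrophil protein calprotectin, had log2 ratios of 3.10, 2.81, 1.25 and 3.38 in Il10-/- mice, against −0.39, −0.49, −0.89 and −1.01 in C57 mice. S100a8, the other subunit, stood at 2.03, 1.85, 0.67 and 2.48 in Il10-/- mice, against −0.69, −0.36, −0.78 and −0.78 in C57 mice. Il1b, the cytokine interleukin-1 beta, stood at 3.36, 2.91, 1.09 and 3.23 in Il10-/- mice, against 0.19, −0.23, 0.23 and −0.29 in C57 mice. In all 3 genes mouse 95 was the lowest Il10-/- mouse and still above every C57 mouse. The folds were 10-fold for S100a9 (adjusted p = 1.16e-05), 5.32-fold for S100a8 (adjusted p = 0.000261) and 6.38-fold for Il1b (adjusted p = 0.000117). Of 15 neutrophil markers these calprotectin genes and Clec4d were higher and 0 lower, with a median of 0.14. Mpo, the granule peroxidase of neutrophils, differed by −0.02 ± 0.06 (adjusted p = 0.889). The mean over the neutrophil list was 0.23 to 0.56 in Il10-/- mice and −0.15 to 0.02 in C57 mice. Clec4d overlapped between the groups and was no longer called without any 1 of Il10-/- mice 92, 94 and 96, C57 mice 64, 65 and 66 or the 7-week C57 mice 45 and 46, or when only the 12-week arrays were fitted.

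Of 33 cytokine genes 3 were higher and 0 lower (median 0.08). Beside Il1b these were Ltb, the lymphotoxin beta of lymphoid tissue (2.02-fold), and Tnf (1.73-fold). Tnf stood at 0.94, 0.69, 0.31 and 0.72 in Il10-/- mice, against −0.03, −0.27, 0.11 and −0.31 in C57 mice, again lowest in mouse 95. Ltb was highest in that mouse, at 0.62, 0.80, 1.29 and 0.93 in Il10-/- mice, against −0.02, −0.03, −0.21 and −0.15 in C57 mice. Of 30 chemokines 6 were higher and 0 lower (median 0.35), and 9 were higher without mouse 95. Cxcl10 (4.52-fold) and Cxcl9 (4.44-fold), interferon-induced attractants of T cells, did not overlap between the groups. Ccl5 (2.33-fold), which draws T cells and monocytes, Ccl2 (2.02-fold), which draws monocytes, Ccl8 (1.95-fold) and the B cell attractant Cxcl13 (1.87-fold) followed. Of 24 pattern recognition and inflammasome genes 5 were higher (median 0.20): the fungal glucan receptor Clec7a (3.34-fold), the lipopolysaccharide co-receptor Cd14 (1.99-fold), Casp4 (1.92-fold), which senses lipopolysaccharide in the cytosol, Tlr9 (1.89-fold) and Tlr2 (1.87-fold).

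Markers of several leukocytes rose in part. Of 15 macrophage and monocyte markers 6 were higher and 0 lower (median 0.33), and the list mean was 0.21 to 0.29 in Il10-/- mice and −0.40 to −0.10 in C57 mice. Ly6c2, which marks inflammatory monocytes, stood at 0.02, −0.08, −0.43 and 0.04 in Il10-/- mice, against −1.55, −2.74, −2.06 and −2.48 in C57 mice (4.26-fold, adjusted p = 5.49e-06). Aif1 (2.15-fold), the lysozyme gene Lyz2 (1.92-fold), the monocyte chemokine receptor Ccr2 (1.7-fold) and the Fc receptor gene Fcgr3 (1.53-fold) rose too. The call of Fcgr3 was lost with quantile normalization and without C57 mouse 64. Of 23 T and NK cell markers the granule proteases Gzma (3.36-fold) and Gzmb (1.85-fold) were called, and the T cell receptor complex gene Cd3d differed by 0.49 ± 0.10 (adjusted p = 0.00335), short of the fold threshold. With no fold threshold 10 of the 23 were higher and 0 lower, against 986 and 943 of all 19076 genes tested. Gzma was highest in mouse 95, at 0.23, 0.38, 1.06 and 0.44 in Il10-/- mice, against −1.42, −1.06, −1.17 and −1.23 in C57 mice. In limma 0 of 10 dendritic cell, 0 of 15 mast cell and eosinophil and 0 of 15 crypt stem cell markers were called. An unadjusted p under 0.05 was reached by 2, 7 and 3 of them, and by 4360 of all 19076 genes tested.

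Plasma cell genes were higher in part. Of 11 measured, 4 were higher and 0 lower (median 0.37), and the mean of the list was 0.76 to 0.84 in Il10-/- mice and 0.06 to 0.29 in C57 mice. Jchain, which joins IgA dimers, had log2 ratios of 1.87, 1.89, 2.19 and 1.98 in Il10-/- mice, against 0.31, 0.06, 0.64 and −0.36 in C57 mice (3.53-fold, adjusted p = 4.34e-05). The lambda light chain segment Iglv1 rose 3.11-fold over 9 features that range from −0.33 to 2.28. Mzb1, a chaperone of antibody secretion, rose 1.96-fold and Igha, the IgA heavy chain, 1.64-fold. Pigr, which carries IgA across the epithelium, stood at 0.59, 1.00, 1.24 and 1.09 in Il10-/- mice, against 0.29, 0.32, 0.18 and 0.29 in C57 mice (1.64-fold, adjusted p = 0.000507). It lies among the genes nearest Il10, and whether it differs with the strain of origin of that segment was not tested. Of 13 B cell markers Pou2af1 (1.97-fold) and Cd79b (1.66-fold) were higher. Itgb7, an integrin chain of gut-homing lymphocytes, rose 2.20-fold and the adhesion molecule gene Icam1 1.63-fold, 2 of 15 genes of adhesion and homing.

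Of 29 genes of epithelial and secreted defence 6 were higher and 1 lower (median 0.18), with 2 lower without C57 mouse 63. Duoxa2, the maturation factor of the hydrogen peroxide-forming enzyme DUOX2, stood at 2.01, 1.69, 1.54 and 1.72 in Il10-/- mice, against 0.26, 0.23, 0.06 and 0.54 in C57 mice (2.77-fold, adjusted p = 6.87e-07). The secreted phospholipase Pla2g5 (2.76-fold), the lysozyme Lyz1 (3.66-fold) and Pigr did not overlap either. The protease inhibitor gene Slpi rose by 0.97 over 2 features that disagree (−0.10 and 2.05). Retnlb, a bactericidal goblet cell protein, was called 3.02-fold higher, but in all 4 Il10-/- mice its value was the 1 shared by 127 to 149 features of the array, so its level there was not resolved. The same value filled the Il10-/- mice for the antimicrobial lectins Reg3b and Reg3g, which were not called (adjusted p = 0.123 and 0.0562). Without C57 mouse 66 both were, at 2.11 and 2.98, and both were with array weights. Reg3g was also called with the most variable feature and without the 7-week C57 mouse 45. Reg4, a lectin of secretory cells, fell in 3 mice but little in mouse 92, at 1.64, −1.08, −0.77 and −1.03 in Il10-/- mice, against 2.19, 2.06, 2.33 and 1.83 in C57 mice (5.33-fold lower, adjusted p = 0.00124). Without mouse 92 its difference was −3.06.

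Goblet cell genes did not move together. Of 17 markers 3 were higher and 2 lower, with a median of 0.00. Muc2, the gel-forming mucin, stood at 0.86, 1.08, 1.70 and 1.51 in Il10-/- mice, against 1.44, 1.74, 1.34 and 0.62 in C57 mice, and its difference of 0.00 ± 0.22 (adjusted p = 0.996) changed sign with several alternatives. The membrane mucins Muc13 (1.76-fold) and Muc4 (1.71-fold) were higher, and Spink4, a protease inhibitor of goblet cells, was 1.85-fold lower. Tff3, the trefoil peptide of mucus, differed by −0.24 ± 0.12 (adjusted p = 0.238).

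Of 14 complement genes 6 were higher and 0 lower (median 0.48): C1ra (2.01-fold) and C1s1 (1.61-fold), the proteases of the first component, C1qc (1.81-fold) and C1qa (1.63-fold), its recognition chains, and C2 (1.92-fold) and C4b (1.63-fold), which form the next convertase. Of 18 matrix-degrading genes 4 were higher. Mmp3, stromelysin-1, stood at 2.09, 1.68, 0.24 and 1.42 in Il10-/- mice, against −0.13, −0.18, −0.09 and −0.28 in C57 mice (2.88-fold, adjusted p = 0.000929). Mmp10, stromelysin-2, stood at 1.51, 0.85, −0.07 and 1.02 in Il10-/- mice, against −0.23, −0.16, −0.24 and −0.28 in C57 mice (2.08-fold, adjusted p = 0.00457). In mouse 95 both proteases were just above the highest C57 mouse. Mmp7, matrilysin (1.85-fold), and the collagenase gene Mmp13 (1.76-fold) were also called, and the call of Mmp13 was lost when only the 12-week arrays were fitted. In limma 0 of 19 collagen and matrix-building genes were called. An unadjusted p under 0.05 was reached by 9 of them, and by 4360 of all 19076 genes tested. Among the 9 was Col1a1 (0.36 ± 0.08, adjusted p = 0.0103). Without Il10-/- mouse 95 or C57 mouse 65 or 66, 1 of the 19 genes was called higher.

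**Figure D3:**
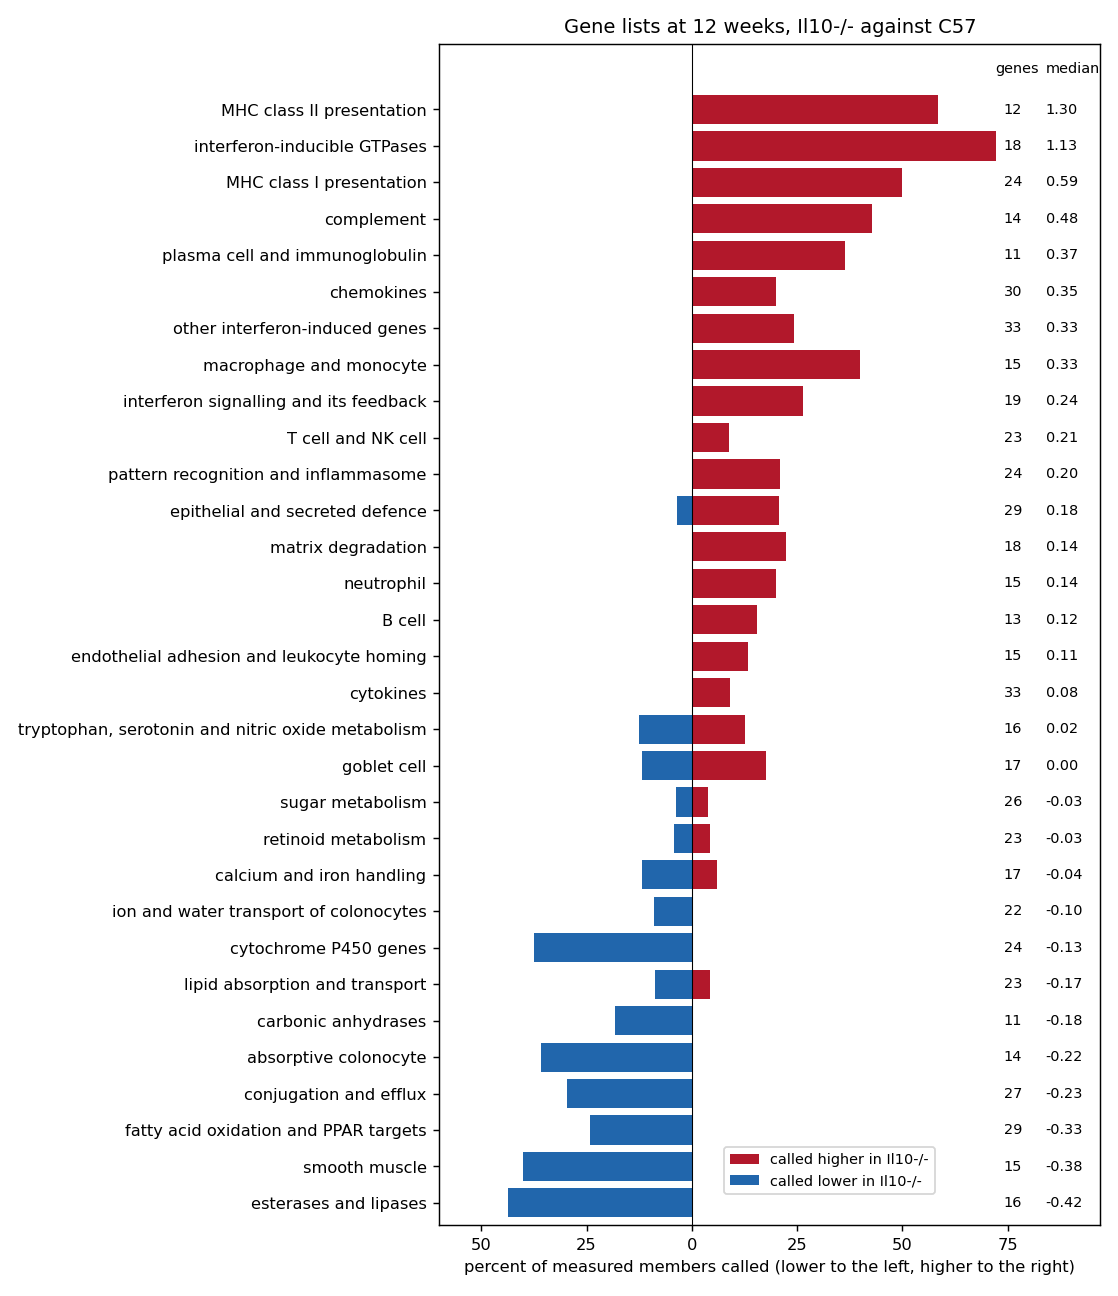
Percent of the measured members of each gene list that were called higher (right) or lower (left) in Il10-/- mice at 12 weeks, with the number of measured genes and the median log2 difference beside each bar; lists with fewer than 2 called genes are left out. Bars run to the right for MHC class II (7 of 12) and the interferon-inducible GTPases (13 of 18) and to the left for esterases (7 of 16) and cytochrome P450 genes (9 of 24).

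Genes of mature colonocytes, the surface cells that take up water, salt and short-chain fatty acids, were lower in part. Of 14 absorptive colonocyte markers 5 were lower and 0 higher (median −0.22), and the list mean was 0.07 to 0.60 in Il10-/- mice and 0.57 to 1.08 in C57 mice, with mouse 95 at 0.60 and C57 mouse 63 at 0.57. Aqp8, a water channel of surface colonocytes, stood at −0.46, −1.27, 0.33 and 0.03 in Il10-/- mice, against 1.52, 1.80, 1.84 and 2.29 in C57 mice (4.62-fold lower, adjusted p = 0.00276). Slc26a3, the chloride-bicarbonate exchanger, stood at 0.27, −0.19, 0.11 and −0.25 in Il10-/- mice, against 1.26, 1.11, 1.62 and 1.95 in C57 mice (2.83-fold lower, adjusted p = 0.000182), as the mean of 3 features that range from −2.28 to −0.09. Car2, the cytosolic carbonic anhydrase that supplies bicarbonate for this exchange, was tight in C57 mice, and stood at −1.39, −1.25, −0.40 and −1.07 in Il10-/- mice, against 1.31, 1.35, 1.23 and 1.32 in C57 mice (5.03-fold lower, adjusted p = 7.13e-07). None of these 3 genes overlapped between the groups.

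Not every colonocyte gene fell. Of 22 genes of ion and water transport 2 were lower and 0 higher, with a median of −0.10. The count lower was 6 without mouse 95 and 4 without C57 mouse 63. Of 11 carbonic anhydrases Car2 and Car7 (1.69-fold) were lower, while Car1, the abundant colonic form, differed by 0.42 ± 0.15 (adjusted p = 0.0976) and the membrane-bound Car4 by −0.18 ± 0.17 (adjusted p = 0.564). S100g, the calcium buffer calbindin-D9k, was 3.52-fold lower and the fatty acid carrier Fabp2 3.59-fold lower. Some Fabp2 values equal the shared value of their array. The phosphate transporter gene Slc20a1 was 2.11-fold lower, and Mep1a, a brush border protease, 1.69-fold lower. The call of Mep1a was lost without Il10-/- mouse 92 or 96 or C57 mouse 66 and when only the 12-week arrays were fitted.

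Gasdermin C genes, of the family of pore-forming proteins, fell together. Gsdmc stood at −0.05, −0.96, −0.70 and −1.21 in Il10-/- mice, against 1.67, 1.08, 1.61 and 1.99 in C57 mice (4.99-fold lower, adjusted p = 1.4e-05). Gsdmc2 was 4.44-fold and Gsdmc3 3.80-fold lower, with mouse 92 the highest Il10-/- mouse in each. Their near-identical copies on chromosome 15 may share probe signal. St3gal5, which makes the ganglioside GM3, stood at −1.65, −1.65, −1.62 and −1.77 in Il10-/- mice, against 0.04, 0.42, 0.79 and 1.05 in C57 mice (4.75-fold lower, adjusted p = 1.71e-07). Here mouse 95 was no different from the rest. Mpst, a sulfur transferase that forms hydrogen sulfide, was 3.89-fold lower. Of 26 genes of sugar metabolism the hexokinases moved in opposite directions, with Hkdc1 3.78-fold lower and Hk2 2.18-fold higher.

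Genes of drug and xenobiotic metabolism held many of the falls. Of 24 cytochrome P450 genes 9 were lower and 0 higher (median −0.13), of 27 genes of conjugation and efflux 8 were lower and 0 higher (median −0.23), and of 16 esterases and lipases 7 were lower and 0 higher (median −0.42). Cyp4b1, which hydroxylates fatty acids and amines, stood at −4.20, −4.10, −3.54 and −3.86 in Il10-/- mice, against −2.41, −1.70, −1.54 and −1.40 in C57 mice (4.47-fold lower, adjusted p = 4.03e-06). Cyp2c55, an arachidonic acid epoxygenase of the colon, stood at −0.15, −0.13, 1.53 and 0.99 in Il10-/- mice, against 2.34, 2.49, 2.32 and 2.40 in C57 mice (3.55-fold lower, adjusted p = 0.00107). The spread of Cyp2c55 was wide in Il10-/- mice and narrow in C57 mice. Cyp2c29 was 3.92-fold and Cyp3a13 2.02-fold lower, and the groups overlapped in Cyp3a13 (0.92 in Il10-/- mouse 95, against 0.83 in C57 mouse 63).

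Among the conjugating enzymes, the sulfotransferase Sult1c2 stood at −1.77, −1.55, −1.53 and −1.41 in Il10-/- mice, against 0.30, 0.47, 0.63 and 0.29 in C57 mice (3.96-fold lower, adjusted p = 4.29e-09). It had the smallest adjusted p of the falls, and mouse 95 did not stand apart. Sult1d1 was 3.72-fold lower and Sult1a1 3.10-fold lower, and in Sult1a1 mouse 95 (2.01) lay within the C57 range of 1.92 to 2.54. The efflux pumps Abcb1a, the mouse P-glycoprotein (2.82-fold), and Abcg2 (2.01-fold) and the glutathione transferase Gsta1 (2.48-fold) were lower with no overlap. Of the esterases, the arylacetamide deacetylase Aadac stood at −2.67, −2.54, −1.85 and −2.37 in Il10-/- mice, against −0.45, −0.18, −0.13 and −0.04 in C57 mice (4.47-fold lower, adjusted p = 1.67e-07). Ces1g, a carboxylesterase and lipid hydrolase, stood at −0.33, −0.38, 1.05 and −0.18 in Il10-/- mice, against 1.83, 2.20, 2.08 and 1.83 in C57 mice (3.85-fold lower, adjusted p = 4.34e-05). Mouse 95 was the least reduced in both. Ces2b, another carboxylesterase, was 2.71-fold lower.

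Fatty acid oxidation genes followed. Short-chain fatty acids from bacteria are the main fuel of colonocytes, and the nuclear receptor PPAR-alpha drives many of the oxidation genes. Of 29 genes of fatty acid oxidation and PPAR targets 7 were lower and 0 higher (median −0.33), and 11 were lower without Il10-/- mouse 95 or without C57 mouse 63. Hao2, a peroxisomal hydroxyacid oxidase, stood at −2.01, −1.50, −0.12 and −1.32 in Il10-/- mice, against 1.02, 1.07, 1.43 and 1.34 in C57 mice (5.48-fold lower, adjusted p = 2.92e-05), the largest fall of all genes. Ppara itself stood at −1.20, −0.85, −0.64 and −1.16 in Il10-/- mice, against −0.34, −0.09, −0.20 and −0.28 in C57 mice (1.67-fold lower, adjusted p = 0.000758). The mitochondrial enzymes Acaa2 (2.18-fold), Acadvl (1.86-fold), Cpt2 (1.66-fold) and Hadh (1.57-fold) and the peroxisomal Hsd17b4 (1.64-fold) were lower. Acadvl had no value in C57 mouse 66, and the call of Hadh was lost without mouse 92. Pparg differed by −0.35 ± 0.06 (adjusted p = 0.0015), short of the fold threshold, and the coactivator gene Ppargc1a by −0.29 ± 0.09 (adjusted p = 0.0622). Of 23 genes of lipid absorption and transport 2 were lower and 1 higher. The count lower was 4 with array weights or without C57 mouse 63, and 1 with only the 12-week arrays, with scale normalization or without any 1 of Il10-/- mice 94 and 96, C57 mouse 66 and the 7-week C57 mice 43, 44, 45 and 46. The 1 higher was lost with only the 12-week arrays, with quantile or scale normalization and without any 1 of Il10-/- mice 92 and 94, C57 mice 64, 65 and 66 or the 7-week mice 43, 44, 45 (C57) and 77 (Il10-/-). Of 27 oxidative phosphorylation genes 0 were called in limma, with 24 negative differences and a median of −0.20. With no fold threshold 11 of the 27 were lower at an adjusted p under 0.05, against 943 of all 19076 genes tested. An unadjusted p under 0.05 was reached by 17 of the 27, and by 4360 of all genes.

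Enzymes of amine and tryptophan metabolism moved both ways. Maoa, monoamine oxidase A, stood at 0.00, −0.18, 0.70 and −0.06 in Il10-/- mice, against 1.23, 1.83, 1.70 and 1.82 in C57 mice (2.88-fold lower, adjusted p = 2.14e-05), and Maob was 2.42-fold lower. With Ido1, Wars, the interferon-induced tryptophanyl-tRNA synthetase, was 1.94-fold higher. In retinoid metabolism (1 of 23 higher and 1 lower) the retinoic acid-forming Aldh1a1 was 2.95-fold lower and the retinol transporter gene Stra6 2.16-fold higher. Hpgd, which inactivates prostaglandins, was 1.51-fold lower, a call lost without Il10-/- mouse 92 or 96 or C57 mouse 64 or 65, with only the 12-week arrays and with scale normalization. Ptgs2, the inducible cyclooxygenase, differed by 0.30 ± 0.10 (adjusted p = 0.0928). Of 19 junction genes Cldn8, a claudin of the distal colon, was called (2.01-fold lower).

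**Figure D4:**
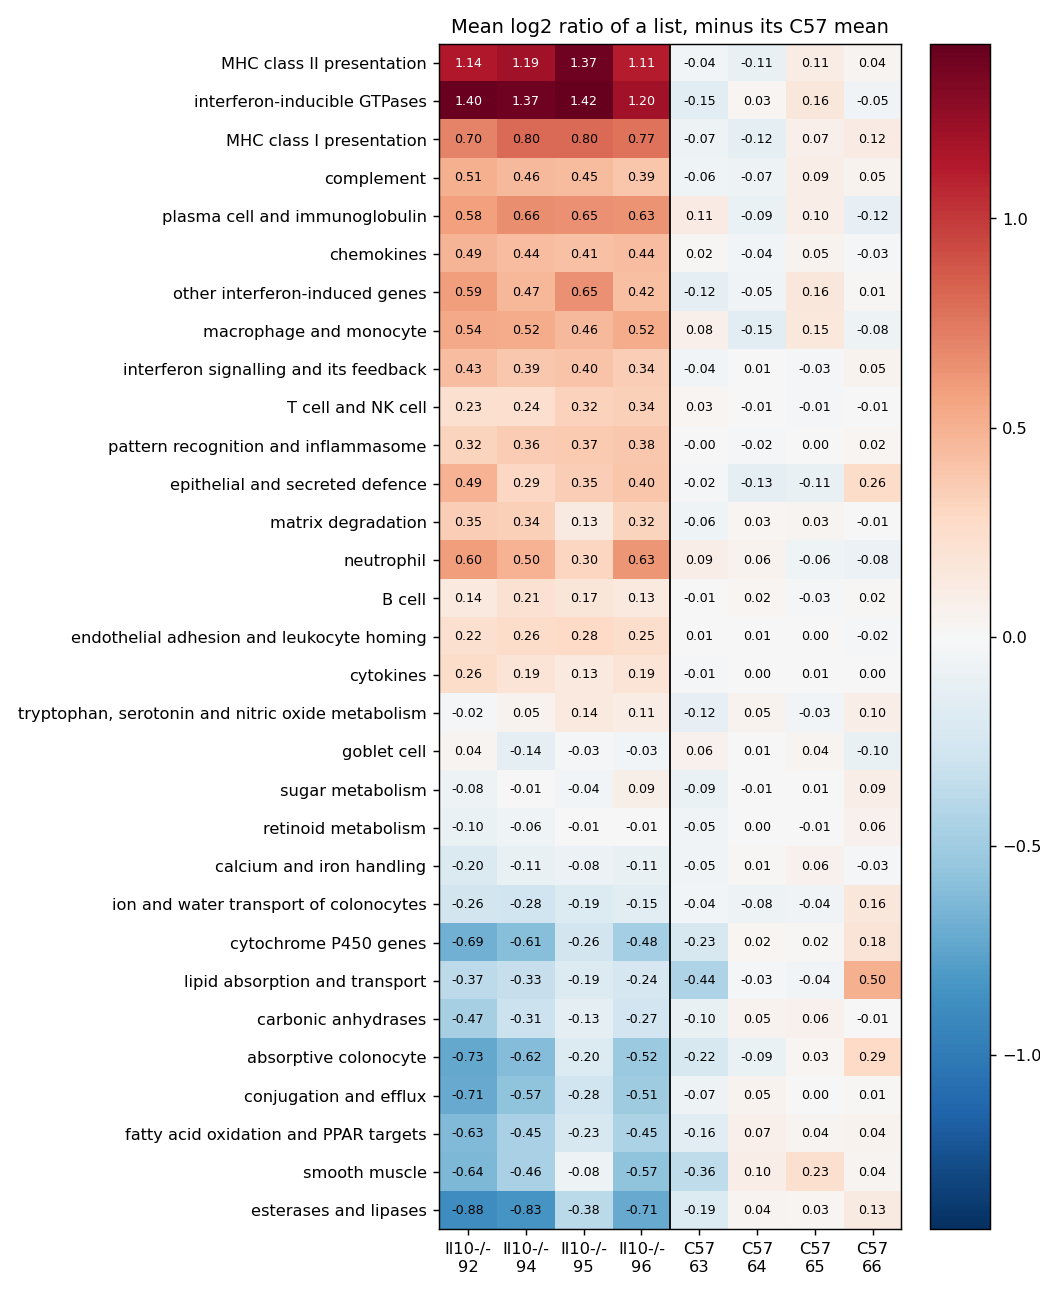
Mean log2 ratio of each gene list in each mouse (columns, 4 Il10-/- mice and then 4 C57 mice) as the difference from the C57 mean of that list; red is higher, blue lower, and each cell prints its value. Mouse 95 is as red as the other Il10-/- mice in the GTPases (1.42) and MHC class II genes (1.37) and paler blue in the esterases (−0.38) and smooth muscle genes (−0.08).

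Smooth muscle genes gave 6 lower and 0 higher of 15 (median −0.38): Tpm2 (1.92-fold), Myh11 (1.83-fold), Cnn1 (1.81-fold), Mylk (1.64-fold), Myl9 (1.61-fold) and Lmod1 (1.58-fold), all parts or regulators of the contractile apparatus. The groups overlapped in all 6. Lmod1 is also among the 200 tested genes nearest Il10, and whether it differs with the strain of origin of that segment was not tested. Acta2, smooth muscle actin, differed by −0.29 ± 0.10 (adjusted p = 0.0956). Myh11, smooth muscle myosin, stood at 0.61, 0.66, 1.56 and 0.66 in Il10-/- mice, against 1.20, 1.91, 2.15 and 1.73 in C57 mice. The list mean was −0.27, −0.09, 0.30 and −0.20 in Il10-/- mice, against 0.01, 0.47, 0.60 and 0.41 in C57 mice. Mouse 95 was thus above C57 mouse 63. The count lower was 7 without mouse 95 or without mouse 63, but 3 without any 1 of Il10-/- mice 92, 94 and 96 or C57 mice 64 and 65, and 2 when only the 12-week arrays were fitted. The share of muscle in each piece of colon was not measured, and its part in these values was not tested.

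Other lists held few or no called genes. Cell cycle genes gave 1 of 31, Ccnd1 (1.56-fold higher, lost without mouse 92). In limma 0 of 20 sterol synthesis genes (7 at an unadjusted p under 0.05), 0 of 20 endoplasmic reticulum stress and folding genes (8), 0 of 18 enteroendocrine markers (2), 0 of 8 tuft cell markers (2) and 0 of 15 enteric neuron and glia markers (6) were called. Of all 19076 genes tested, 4360 were at that unadjusted p. In the endoplasmic reticulum list 1 gene was called without C57 mouse 63 and 1 neuron and glia marker without C57 mouse 66. Of 13 fibroblast and adipocyte markers 1 was lower, a call lost without any 1 of Il10-/- mice 92, 94 and 96 or C57 mice 64, 65 and 66.

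The difference between genotypes was then set against that of 7 weeks, when the mice had no colitis. At 7 weeks 268 genes (1.4%) were higher and 193 genes (1.01%) lower in Il10-/- mice. Of the genes called at 12 weeks, 129 of the higher and 85 of the lower were called in the same direction at 7 weeks and 3 in opposite directions. The 286 higher genes had a median difference of 0.53 at 7 weeks and 0.89 at 12 weeks, and the 195 lower genes of −0.57 and −0.85. Both sets were picked by their 12-week difference. That choice by itself favours a smaller difference at 7 weeks and a change in the direction of the call. The change of the difference itself was called in 219 of all genes (1.15%), 94 positive and 125 negative, and in 100 of the 481. Among these, the change was positive in 55 of the genes higher at 12 weeks and negative in 3, and negative in 41 of the lower genes and positive in 1. Some of them, such as Aqp8 and Iglv1, had differed in the opposite direction at 7 weeks. The count of 219 was 136 without Il10-/- mouse 78 of 7 weeks.

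**Figure D5:**
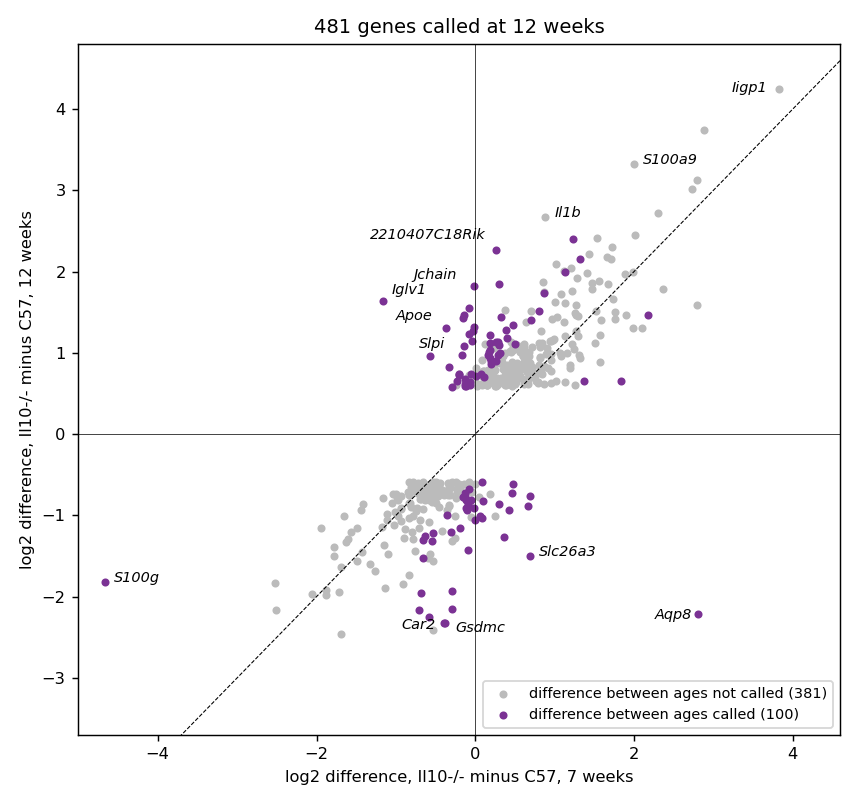
Log2 difference of Il10-/- minus C57 mice at 7 weeks (x axis) and at 12 weeks (y axis) for the 481 genes called at 12 weeks, 1 point per gene; the dashed line marks equal differences, and the 100 genes whose difference between the ages was called are purple. Most points lie near or beyond the line on the same side of 0 at both ages, while Aqp8 (2.81 and −2.21) and Iglv1 (−1.16 and 1.64) change sign.

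Of the 18 interferon-inducible GTPases 12 were called higher at 7 weeks, with a median of 0.89, and 0 were called for the change between the ages in limma. An unadjusted p under 0.05 for that change was reached by 2 of the 18, and by 3220 of all 19076 genes tested. The plasma cell list differed. Its median was −0.01 at 7 weeks, with 0 higher and 1 lower, and all 4 genes called at 12 weeks were called for the change. Jchain differed by −0.01 at 7 weeks and 1.82 at 12 weeks (change 1.83 ± 0.32, adjusted p = 0.00858). In class I presentation 6 of 24 genes were called for the change, among them B2m, which differed by 0.19 at 7 weeks and 1.12 at 12 weeks. Aqp8 was higher in Il10-/- mice at 7 weeks (2.81) and lower at 12 weeks (−2.21), the largest change of all called genes (−5.02 ± 0.62, adjusted p = 0.00168). Slc26a3 differed by 0.68 at 7 weeks, which was not called, and −1.50 at 12 weeks. Car2 (−0.39 at 7 weeks, −2.33 at 12 weeks) and the gasdermin C genes (Gsdmc −0.39 and −2.32) fell mainly at 12 weeks, whereas Hkdc1 (−1.88 and −1.92), Sult1c2 (−1.88 and −1.98) and Cyp4b1 (−2.51 and −2.16) were about as low at both ages. At 7 weeks 7 cytochrome P450 genes, 6 of conjugation and efflux, 7 esterases and lipases and 4 of fatty acid oxidation were lower. In each of these lists 0 were higher at that age. Their 7-week medians were −0.10, −0.20, −0.39 and −0.39. The change was called negative in 1, 5, 1 and 1 of them. Apoe, a lipid carrier of macrophages and other cells, differed by −0.37 at 7 weeks and 1.31 at 12 weeks, and the transcript 2210407C18Rik by 0.26 and 2.27. S100g was the exception among the falls, at −4.67 at 7 weeks and −1.82 at 12 weeks (change 2.85 ± 0.32, adjusted p = 0.000876).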

How the data were processed

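Per the study's methods, the authors did not correct for background and applied loess to the spot ratios. Their deposited values, log2 of colon over reference, were used unchanged. No intensities were used here. A feature needed values from 2 or more arrays in each group, which left 42128 of 44290. Those listing 1 gene were averaged to 19076 genes, and 10818 of these rest on 1 feature. limma 3.58.1 (R 4.3.3), the tool that the submitters' processing notes name, was fitted to all 15 arrays in 4 groups, with 11 residual degrees of freedom, by lmFit and eBayes. Adjusted p values are Benjamini-Hochberg over all genes, and errors are SE. Tables were summarized with pandas 2.3.3 under Python 3.11.15.

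The comparison, gene lists and tests were chosen with earlier results of these data known. Named genes are the 15 largest rises and falls without overlap, up to 8 called members of a list, the first 3 members of a list, the 5 largest changes between ages either way, Il10 and genes with a printed promoter. Alternatives were median centring, quantile and scale normalization, array weights, a robust variance prior, complete features, treat, other fold thresholds, the 12-week arrays alone, the most variable feature, features off the shared value, leaving out the 25% of genes with the lowest mean ratio and each mouse left out. Each mouse is 1 array, so the number of arrays limits the precision.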

Additional observations from a re-analysis of the deposited data

Results flagged for a closer look

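In 19 of 347 sets of 4 mice examined, 1 mouse lay far from the other 3 by Dixon's criterion, and chance flags about 1 in 20 groups. Of the Il10-/- mice, mouse 95 was the distant one for Ubd (2.39), Ifit3 (0.081), Cd3g (0.46), Slpi (0.29), Ces1g (1.05), Maob (−1.34), Aldh1a1 (−0.37) and Myh11 (1.55) and mouse 92 for Il10 (0.25), Socs1 (1.21), Reg4 (1.64) and Gsdmc2 (0.030), each given as its log2 ratio. Of the C57 mice it was mouse 65 for Irgm1 (−0.51), Ifit3 (0.094), Cxcl9 (−0.68) and Cxcl10 (−0.77) and mouse 63 for Pparg (1.62), Ccnd1 (0.34) and Acod1 (−0.015). Among the genes flagged for mouse 95, Slpi was the only 1 in which this mouse was lower rather than higher than the other 3 Il10-/- mice.

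The genotype difference was called in limma as differing between the ages in 40 of the genes described, and the values here are the 12-week minus the 7-week difference on the log2 scale. It was more positive at 12 weeks, in genes higher in Il10-/- mice, for Psmb8 (1.17), B2m (0.93), H2-D1 (0.60), H2-Q4 (0.87), H2-T10 (0.79), H2-Eb1 (0.84), H2-Ab1 (0.86), H2-Aa (0.71), Clec7a (0.87), Ltb (0.84), Cxcl13 (0.70), Ccl5 (1.04), Cd79b (0.94), Pou2af1 (0.82), Jchain (1.83), Iglv1 (2.80), Mzb1 (0.69), Igha (0.71), Itgb7 (0.88), Slpi (1.14), C2 (0.76), Apoe (1.68), 2210407C18Rik (2.01), Cyba (0.59) and Acod1 (0.90). It was more negative at 12 weeks, in genes with lower means in Il10-/- mice, for Spink4 (−1.54), Aqp8 (−5.02), Slc26a3 (−2.19), Car2 (−1.94), Car4 (−1.02), Gsdmc (−1.93), Gsdmc2 (−1.86), Gsdmc3 (−1.64), St3gal5 (−1.66), Mpst (−1.27), Abcg2 (−1.07), Aadac (−1.45) and Cpt2 (−0.60). Pla2g5 (−0.71) was called higher at 7 and 12 weeks, less so at 12 weeks, and S100g (2.85) was lower at both ages and less so at 12 weeks. Car4 had not been called at 12 weeks. The 7-week group holds 3 Il10-/- mice chosen for having no inflammation.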

How the results depend on the processing

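The 481 genes called at 12 weeks (286 higher, 195 lower) were 1929 (986, 943) with no fold threshold, 189 (117, 72) at a fold of 2, 132 (90, 42) by treat, which tests against a fold of 1.5, and 317 (107 lower) without the 25% of genes with the lowest mean ratio, where fewer genes are tested. Of the calls, 59.5% were higher, against 51.1% with no fold threshold, 68.2% by treat and 66.2% without the lowest genes. The 1035 features called were 3213, 391 and 257 with no fold threshold, a fold of 2 and treat. The 219 genes called between the ages were 430, 58 and 3 with those thresholds and 136 without the lowest genes. Leaving out 1 mouse at a time gave 456 to 560 genes (273 to 311 higher, 173 to 249 lower), 961 to 1159 features and 136 to 262 genes between the ages, the lowest without Il10-/- 7-week mouse 78. The cause of these shifts was not tested. Other counts of these kinds moved by less than 1.5 times under the remaining alternatives. Reversals were in genes not called: Muc2 (0.00) with array weights (−0.065), quantile normalization (−0.019) and single mice left out (−0.22 to 0.16), Mpo (−0.02) with the most variable feature (0.024) and single mice left out (−0.041 to 0.017), Ifit3 with single mice left out (−0.19 to 0.052, highest without C57 mouse 65) and Car4 likewise (−0.38 to 0.012, highest without Il10-/- mouse 92). The most variable feature gave 3.01 for Tgtp1, 2.05 for Slpi, −2.28 for Slc26a3 and −2.11 for Slc20a1. With that feature 3 collagen and matrix-building genes were higher and 1 lower, where 0 were called, and 4 adhesion and homing genes were higher rather than 2. No paired analysis was possible because the replicate numbers are mouse numbers that the groups do not share. No intensities were used, so dim spots could not be told from bright ones. The origin of values that many features of an array share was not settled either, so levels there were not resolved.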

Other observations

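The genes in this paragraph and the next were chosen after their values were seen. Zc3h12a, an endoribonuclease that degrades cytokine transcripts, had log2 ratios of 1.81, 1.41, 1.71 and 1.89 in Il10-/- mice, against 0.30, 0.07, 0.13 and 0.24 in C57 mice (2.86-fold, limma adjusted p = 9.87e-07). The groups did not overlap. Nfkbie (1.74-fold) and Nfkbia (1.57-fold), which encode inhibitors that hold NF-kB in the cytosol, and Tnfaip3 (1.7-fold), a ubiquitin-editing enzyme, were higher in all 4 mice. Bcl3 (1.67-fold), a nuclear partner of NF-kB, overlapped between the groups, and its call was lost without Il10-/- mouse 92 or C57 mouse 64 or 65 and when only the 12-week arrays were fitted. Ripk3 (1.81-fold) and Mlkl (1.63-fold), the kinase and the membrane effector of necroptosis, and Cd274 (2.61-fold) rose as well. Of the NADPH oxidase genes, the phagocyte subunits Cybb (1.6-fold) and Cyba (1.63-fold) and the colonic organizer Noxo1 (1.75-fold) were higher. Acod1, which makes itaconate in activated macrophages, stood at 1.54, 1.26, 0.54 and 1.28 in Il10-/- mice, against −0.02, −0.17, −0.17 and −0.15 in C57 mice (2.43-fold, limma adjusted p = 2.94e-05).

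In some genes the spread lay in the C57 mice. Plet1, a surface protein of colonic epithelium, was tight in Il10-/- mice at 2.58, 2.30, 2.30 and 2.42, against 1.51, 0.53, 0.22 and −0.72 in C57 mice (4.03-fold, limma adjusted p = 0.000397). B3galt5, a galactosyltransferase, stood at 2.01, 1.98, 1.81 and 2.28 in Il10-/- mice, against 1.39, 0.29, −0.38 and −1.16 in C57 mice (3.96-fold, limma adjusted p = 0.00181). Both genes were highest in mouse 63 and lowest in mouse 66 among the C57 mice. Further falls were in Ugdh (3.03-fold), which makes the sugar donor for glucuronidation, the hormone gene Sct (secretin, 2.96-fold), the aldo-keto reductase gene Akr1c19 (2.79-fold) and Gclc (2.23-fold), which starts glutathione synthesis.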
